A study of Papio hamadryas with 11 samples.

Results

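The livers of 6 baboon fetuses (Papio hamadryas) whose mothers were controls were described here, out of 11 livers in which small RNA was sequenced. They were chosen by the maternal condition in the labels, so no measured value entered the choice. All 6 fetuses were near term, at 0.9 of gestation. Replicates 1, 2 and 3 were female and replicates 4, 5 and 6 were male. The other 5 livers came from fetuses of obese mothers. They entered only 1 alternative fit, and the maternal groups were not compared. The labels give 1 liver per sample and do not number the animals or describe the mothers further, so p-values below measure the spread between these samples.

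A miRNA is cut from a hairpin precursor as a duplex, and either its 5p or its 3p strand can be loaded into the silencing complex, where it guides repression of messenger RNAs. The strand that is not loaded is usually degraded, so the reads on both arms of a hairpin are used here as a measure of the strand retained. Many miRNA genes lie in clusters that are copied as 1 transcript, and the levels of cluster members can then differ only after transcription. How evenly the libraries captured different sequences was not tested. Ratios between arms, or between cluster members, are therefore ratios of reads. Fetal liver holds hepatocytes and, until birth, blood-forming cells, beside bile duct cells, endothelium, stellate cells and resident macrophages.

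Each library held between 247289 reads (replicate 4) and 319918 reads (replicate 3) on known miRNAs, with a mean of 283322 ± 26580 (SD, n = 6). Levels are given as CPM, counts scaled to 1000000 reads per library and adjusted by TMM, which corrects for differences in composition between libraries. They are not divided by length, since mature miRNAs are of nearly equal length. A miRNA without reads could still have stood at up to 3 reads, which is 9.38 to 12.1 per 1000000 reads depending on the library, and this floor covers counting error only. The reads carry no molecular identifiers. Replicate 4 stood apart from the other 5 livers, as detailed further on. Many, but not all, of the results that rest on it are given with and without it.

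Of 1921 mature names in the table, 573 had reads in at least 1 control liver and 296 had reads in all 6. Single livers had reads on 406 to 432 names, with a mean of 416 ± 10.2. After each library was thinned to 247289 reads, the range was 386 to 424, and replicate 4 had the most names. A further 97 names had reads in 1 liver only. A mean of at least 1000 CPM was reached by 59 names, of 100 CPM by 149 and of 10 CPM by 301.

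The control livers were dominated by miR-192-5p, a miRNA of liver and gut epithelium, and by miR-122-5p, the hepatocyte miRNA that regulates lipid and cholesterol metabolism. miR-192-5p ranged from 195023 to 262167 CPM, with a median of 223223 and a mean of 227966 ± 28105. miR-122-5p ranged from 144161 to 215364 CPM, with a median of 178730 and a mean of 175513 ± 27313. miR-192-5p was above miR-122-5p in each of the 6 livers, although the ranges overlapped. Together they held 40.2% ± 2.62 of reads.

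Next came miR-143-3p, known from smooth muscle and other mesenchymal cells, at 78513 ± 6581 CPM. It was followed by miR-148a-3p, a hepatocyte miRNA that acts on lipoprotein uptake and DNA methylation, at 61338 ± 5448 CPM. With 1 row used for each name, the leading 4 kept the same order in all 6 livers. In the leading 10, only miR-122-5p against miR-143-3p and miR-143-3p against miR-148a-3p had neighbours whose ranges did not overlap.

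The rest of the leading 10 were miR-26a-5p at 42386 CPM, miR-27b-3p at 34605, miR-10a-5p at 33058, miR-191-5p at 26396, let-7f-5p at 22830 and miR-92a-3p at 21767. miR-26a-5p is a growth-restraining miRNA of differentiated liver, and miR-27b-3p is known as a regulator of lipid metabolism. miR-10a-5p lies within a HOX gene cluster, let-7f-5p belongs to the family of differentiation-associated let-7 miRNAs, and miR-92a-3p comes from the miR-17-92a cluster. These places depend on how names with several precursors are counted, since each precursor has a row of its own. The rows of miR-26a-5p held 72435 and 72416 control reads, those of let-7f-5p 38837 and 37948, and those of miR-181a-5p 25655 each. If near-equal rows hold the same reads, summing them counts those reads more than once, which was not tested. When the rows of each name were summed instead, miR-26a-5p stood at 73607 CPM in the third place, above miR-143-3p (68045) and miR-148a-3p (53202). let-7f-5p then stood at 39147 CPM, miR-92a-3p at 35400, let-7a-5p at 28639 and miR-181a-5p at 26058. miR-191-5p, at 22924 CPM, left the leading 10 and let-7a-5p entered it. Of the leading 30, 26 stayed in the leading 30, and 7 moved by over 1.5 times, miR-101-3p (12097 CPM) and miR-194-5p (7994 CPM) among them. With 1 row per name, the order was loose: miR-27b-3p exceeded miR-10a-5p in only 2 of 6 livers, and miR-191-5p exceeded let-7f-5p in 4. Of the leading 10 by mean, 8 were among the leading 10 of every liver, and 26 of the leading 30 were among the leading 30 of every liver.

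**Figure D1:**
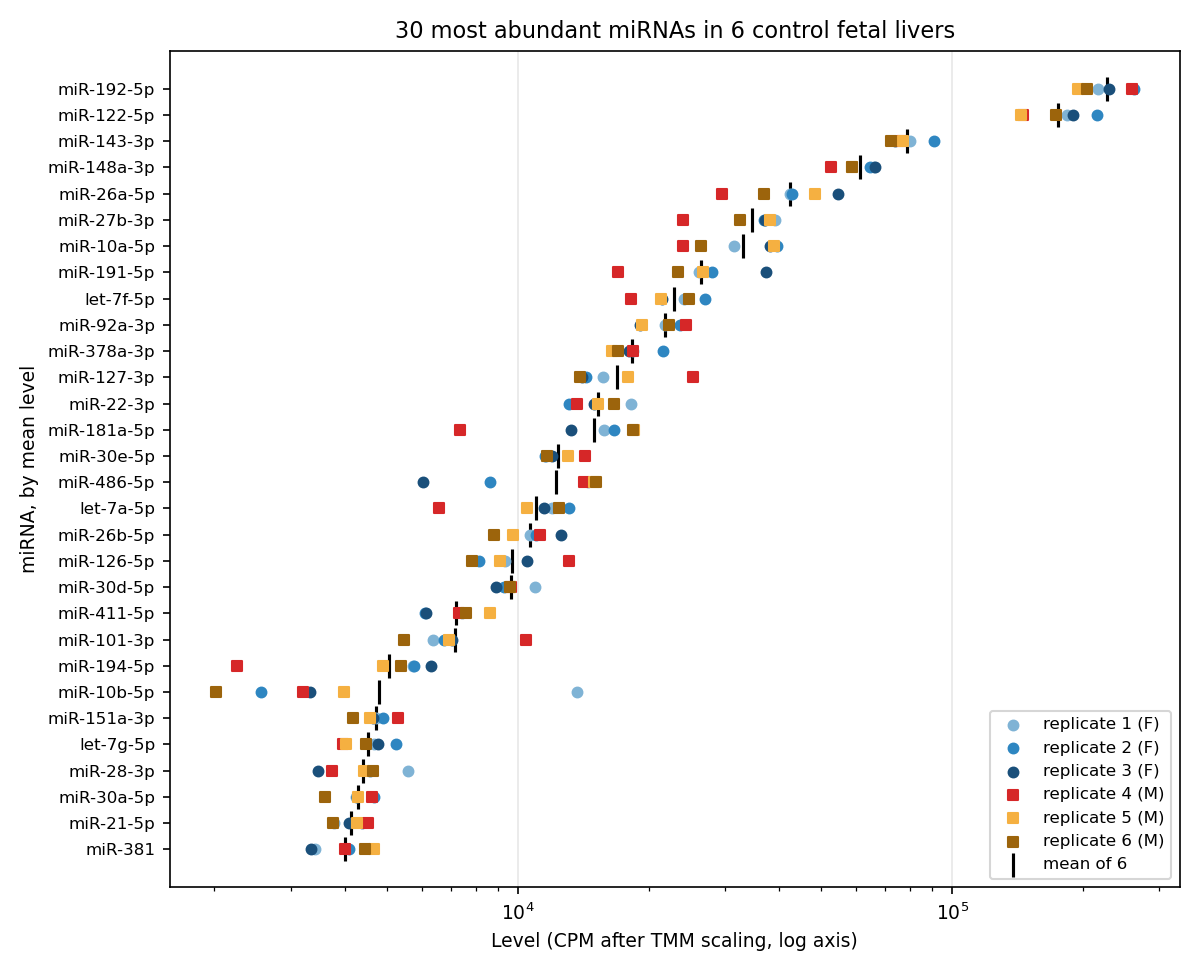
Levels of the 30 most abundant miRNAs in each control liver, in CPM after TMM scaling on a log axis, with females as circles, males as squares and the mean of 6 as a black bar. The levels fall from 227966 CPM for miR-192-5p to 3989 CPM for miR-381, and replicate 4 lies at the edge of many rows.

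Read abundance was concentrated in few names. The leading 10 held 72.2% ± 2.10 of reads, with a range of 70.3% to 75.2%. It took 3 or 4 names to reach 50% of the reads of a liver, 27 to 31 names to reach 90% and 114 to 133 names to reach 99%. Replicate 4 needed the most names for 90% and for 99%.

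Below the leading 10, the most abundant names were miR-378a-3p (18321 CPM), encoded within the PPARGC1B gene, miR-127-3p (16871), from the imprinted DLK1-DIO3 locus, miR-22-3p (15315), a regulator of metabolism, and miR-181a-5p (14994), known from lymphocyte signalling. miR-30e-5p (12334), miR-486-5p (12238), let-7a-5p (11010) and miR-26b-5p (10669) followed. miR-126-5p (9671), miR-30d-5p (9660), miR-411-5p (7196), miR-101-3p (7170) and miR-194-5p (5049) filled the next places. The last of the leading 30 were miR-10b-5p (4789), miR-151a-3p (4710), let-7g-5p (4515), miR-28-3p (4405), miR-30a-5p (4274), miR-21-5p (4120) and miR-381 (3989). The place of miR-10b-5p rests on replicate 1, without which its mean was 3011 CPM and its rank 33.

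Some names cannot be told apart. miR-199a-3p and miR-199b-3p had identical counts at 2452 ± 442 CPM, and miR-151a-5p and miR-151b differed by at most 0.49% in any liver. Close relatives such as the let-7 miRNAs with miR-98, or those of the miR-30 and miR-378 families, may also have shared reads, so their separate levels are uncertain.

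The tissue label was checked against 6 hepatocyte names, each of which had reads in all 6 livers. Summed, these names stood at 471761 ± 49287 CPM, between 404929 and 550781. After miR-192-5p and miR-122-5p, the list was carried by miR-148a-3p. miR-885-5p, a liver-enriched miRNA, stood much lower, at 157 ± 18.0 CPM. In bulk tissue, fewer cells of a type and less RNA per cell cannot be told apart, for this list and for those that follow.

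Mesenchymal names summed to 81913 ± 6748 CPM, almost all of it miR-143-3p. The next was miR-199a-3p, known from stellate cells and fibroblasts, and all 7 names had reads in every liver. The endothelial pair from the EGFL7 gene, miR-126-5p and miR-126-3p, summed to 11226 ± 2090 CPM. Replicate 4 was highest, at 15001 CPM, and the mean without it was 10471 ± 1089.

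The erythroid list set replicates 2 and 3 below the other livers. Its main member, miR-486-5p, a miRNA of maturing red cells, stood at 14462, 8606, 6048, 14185, 14991 and 15137 CPM in replicates 1 to 6. miR-451a, which is cut by AGO2 without Dicer and is needed for red cell maturation, stood at 1102, 650, 573, 1793, 938 and 941 CPM. Replicates 2 and 3, both female, were therefore the lowest for each. miR-144-3p and miR-144-5p, from the same transcript as miR-451a, were also lowest in replicates 2 and 3, at 93.3 and 87.0 CPM for the 3p arm and 48.5 and 45.1 CPM for the 5p arm. The 4 names summed to 13514 ± 4300 CPM, from 6753 to 16450.

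Leukocyte names summed to 1523 ± 292 CPM and had reads in all 6 livers. They were led by miR-142-5p, found across blood cell lineages, at 876 ± 190 CPM and by miR-146a-5p, induced by innate immune signalling, at 399 ± 90.5 CPM. The myeloid miR-223-3p was low, at 98.97 ± 52.5 CPM, from 44.8 to 197. The leukocyte list was lowest in replicate 1 (1120 CPM) and highest in replicate 6 (1999 CPM).

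Biliary epithelial names, the miR-200 family that maintains epithelial identity, summed to 1088 ± 352 CPM. Replicate 6 was lowest at 544 CPM and replicate 5 highest at 1472 CPM. miR-200b-3p (434 ± 171 CPM) and miR-429 (309 ± 104 CPM) led the list. The members from the other miR-200 locus were low, with miR-141-3p at 42.6 ± 29.9 CPM and miR-200c-3p at 7.14 ± 5.34 CPM, the latter on 0 to 4 reads per liver. miR-141-3p stood at 96.6 CPM in replicate 4 and averaged 31.8 CPM in the other 5.

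Lists of striated muscle, neural, islet and trophoblast miRNAs were examined as tissues other than liver, and in them only miR-375 averaged over 100 CPM. miR-375, known from pancreatic islets and also from gut epithelium, stood at 990 ± 167 CPM, from 750 to 1254, while the other islet name, miR-7-5p, stood at 13.4 ± 6.80 CPM. Striated muscle names summed to 49.9 ± 26.2 CPM, led by miR-1 (17.4 ± 14.4 CPM) and miR-499a-5p (16.3 ± 8.20 CPM), and replicate 1 was highest at 96.5 CPM, on at most 26 reads in any liver. The cardiac miR-208a and miR-208b had no reads in any liver.

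The neural miR-124-3p had no reads in any liver, and miR-9-5p stood at 3.46 ± 3.12 CPM on at most 2 reads. Among 54 names of the primate trophoblast cluster (miR-515 to miR-527), 10 had reads in at least 1 liver, and none had reads in all 6. Their sum was 11.1, 3.73, 0, 3.87, 7.21 and 63.6 CPM in replicates 1 to 6. Replicate 6 held 20 reads of this cluster and the other livers 0 to 3, and miR-516a-5p and miR-524-3p led it.

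**Figure D2:**
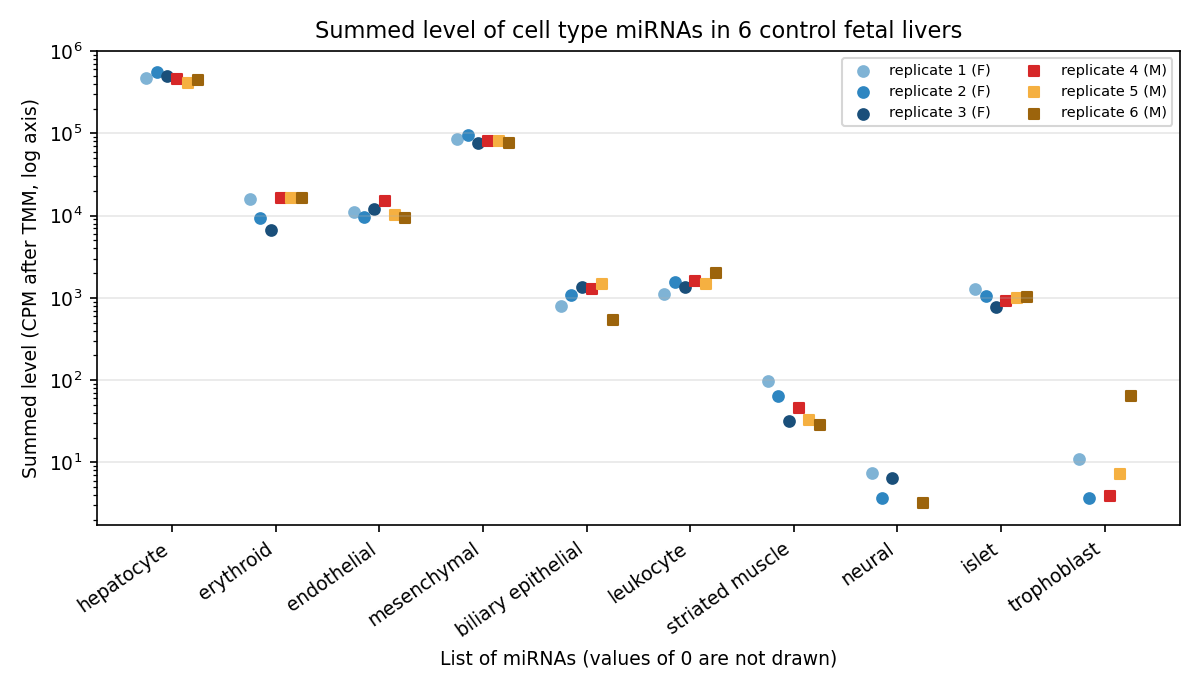
Summed level of each list of cell type miRNAs in each control liver, in CPM after TMM scaling on a log axis, with females as circles, males as squares and sums of 0 not drawn. Hepatocyte names sum to 404929 to 550781 CPM, erythroid names are lowest in replicates 2 and 3, and neural names lie near or at 0. Trophoblast names sum to 63.6 CPM in replicate 6 and to at most 11.1 CPM in the other livers.

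The arm with most reads was the same in all 6 livers at nearly every locus, although the shares of the arms shifted in replicate 4. Both arms were listed for 550 precursors. Where several shared the same dominant arm name, only the precursor with the most control reads was kept. Of those kept, 109 had at least 100 CPM over both arms. The 5p arm held over 50% of the reads in all 6 livers at 62 of these loci and the 3p arm at 45. The dominant arm differed between livers at only 2 loci, and both rested on few reads. At 52 loci the minor arm held under 1% of the reads, at 75 under 5%, and at 13 it had no reads.

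The 10 most abundant loci were almost entirely of 1 arm. The 5p arm held 99.98% ± 0.01 of the reads of miR-192 and 99.04% ± 0.32 of those of miR-122. It also held 99.99% at miR-26a and miR-191, 99.98% at miR-10a and 99.87% at let-7f. The 3p arm held 99.99% at miR-143 and at miR-92a, 99.1% at miR-148a and 99.93% at miR-27b. Since miR-122 was so abundant, even its minor arm stood at 1738 ± 679 CPM, above the major arm of most other loci. Replicate 4 was lowest for miR-122-3p at 553 CPM, and the mean of the other 5 livers was 1975 ± 393.

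At 28 loci the minor arm held over 10% of the reads, and at 14 over 20%. The most even locus was miR-106b, with 49.5% ± 5.19 of its reads on the 5p arm, on 125 reads for 5p and 127 for 3p over 6 livers. Its 5p share lay between 42.4% and 53.9%, above 50% in 3 livers, at 50% in replicate 4 and below 50% in the other 2. The locus miR-382, in the DLK1-DIO3 cluster, had 64.8% ± 20.7 on 5p, with the 3p arm ahead in replicates 3 and 4, on 105 and 62 reads. Close to even as well, yet with 1 arm ahead in all 6 livers, were miR-374a (41.4% ± 5.47 on 5p), miR-423 (37.4% ± 3.32), miR-144 (35.5% ± 3.76), miR-299 (31.4% ± 10.4) and miR-455 (68.4% ± 7.52).

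At miR-151a, which lies in the PTK2 gene, both arms were abundant. Its 5p share was 39.6%, 42.9%, 44.1%, 13.0%, 37.0% and 44.3% in replicates 1 to 6. Replicate 4 thus stood far below the other 5, whose mean was 41.6%. The 3p arm hardly differed in that liver (5299 CPM, 1.15 times the mean of the other 5), while the 5p arm stood at 788 CPM, 0.24 times the mean of the other 5. The endothelial miR-126 gave most reads on the 5p arm in every liver (86.0% ± 2.02), and miR-30e kept 93.2% ± 0.65 on 5p.

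**Figure D3:**
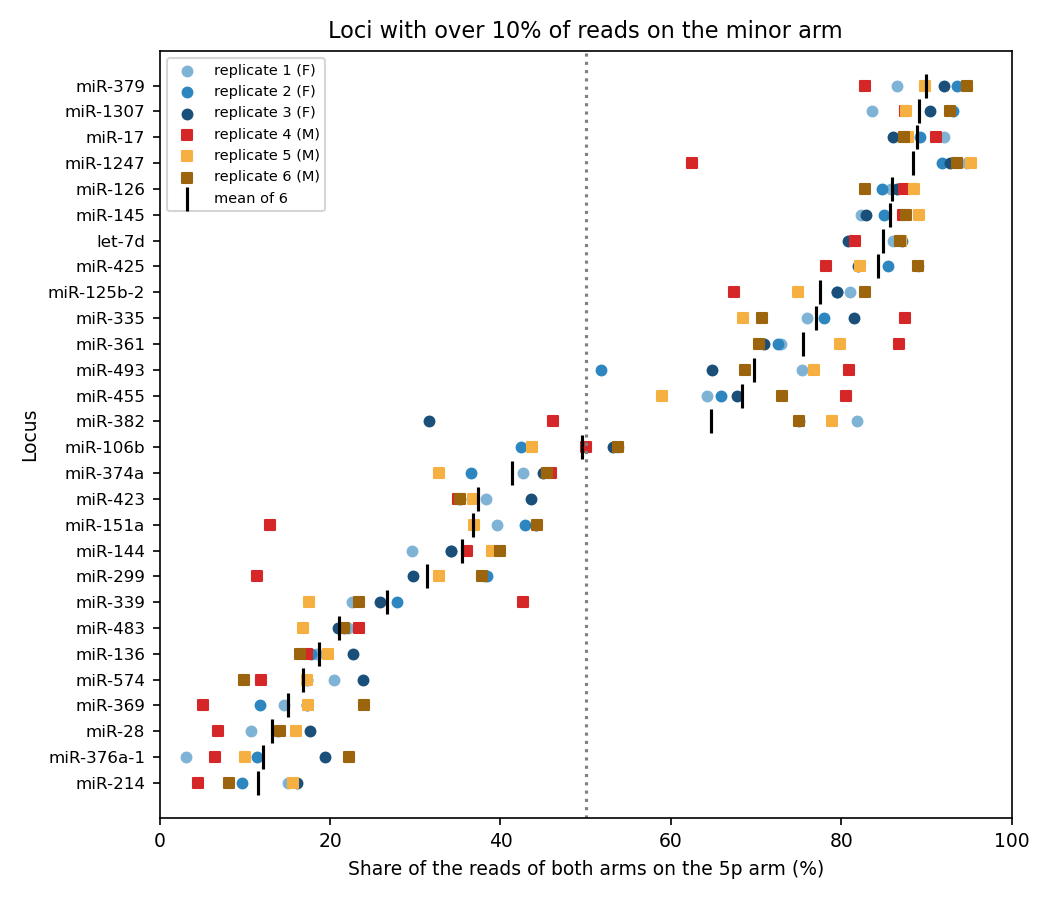
Share of the reads of both arms that lay on the 5p arm, in %, for the 28 loci with over 10% of reads on the minor arm, with 1 point per liver and the mean of 6 as a black bar. The share runs from 11.5% at miR-214 to 89.9% at miR-379, and replicate 4 lies apart at miR-151a, miR-299, miR-339 and miR-1247.

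Where a mature miRNA is made from several gene copies, the opposite arm can differ in sequence and so mark the copy. The arm specific to the second miR-125b gene, miR-125b-2-3p, stood at 482 ± 106 CPM against 19.4 ± 6.01 for miR-125b-1-3p. miR-16-2-3p stood at 33.0 ± 17.8 CPM against 1.78 ± 1.96 for miR-16-1-3p, the latter on 3 reads over all livers. miR-30c-1-3p (42.2 ± 6.90 CPM) was above miR-30c-2-3p (12.5 ± 4.87 CPM). Both copies of miR-181a gave the same level, 65.2 ± 10.9 and 65.6 ± 10.98 CPM. Reads on these arms are a measure of what was retained of each hairpin and not of how much of the shared arm came from each copy.

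Members of the same genomic cluster differed widely in level. Of 33 clusters with at least 2 members at 10 CPM or more, 23 kept 1 order of members in all 6 livers. The median ratio between the mean levels of the highest and the lowest member was 10.7. It exceeded 10 in 17 clusters and 100 in 4, and was within 2 in 4. Names made from several precursors, among them miR-194-5p, miR-16-5p, miR-24-3p, miR-19b-3p, miR-92a-3p, miR-181a-5p, miR-125b-5p and let-7a-5p, count in full in each of their clusters.

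miR-143-3p was 290 times as abundant as miR-145-5p (270 ± 24.7 CPM), its partner in smooth muscle differentiation, and the ratio stayed between 256 and 329 across livers. miR-191-5p was 72.4 times as abundant as miR-425-5p (365 ± 52.4 CPM), between 60.7 and 87.7. miR-27b-3p was 61.2 times as abundant as miR-24-3p, between 50.4 and 68.9, and miR-23b-3p lay between them at 1053 ± 295 CPM. miR-192-5p stood 36.5 to 45.5 times above miR-194-5p in 5 livers and 115 times above it in replicate 4, where miR-194-5p was 2257 CPM against a mean of 5607 ± 524 in the others.

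The miR-17-92a cluster, which drives proliferation of many progenitor cells, was led by miR-92a-3p, 345 times as abundant as miR-18a-5p (63.2 ± 25.5 CPM). In the 5 livers other than replicate 4, miR-19b-3p averaged 843 ± 67.3 CPM, miR-20a-5p 342, miR-17-5p 327 and miR-19a-3p 187. In replicate 4, miR-19b-3p stood at 5303 CPM and miR-19a-3p at 688 CPM, 6.29 and 3.69 times those means. The other 4 members in that liver were 1.12 to 1.28 times the mean of the other 5. The paralogous miR-106b-25 cluster was ordered miR-25-3p (1585 ± 223 CPM), miR-93-5p (455 ± 55.2) and miR-106b-3p (75.3 ± 14.9) in all livers.

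Some pairs within clusters kept narrow ratios. In the cluster of miR-99b-5p (1368 ± 102 CPM), miR-125a-5p was 2.31 to 2.62 times as abundant as let-7e-5p in every liver. Both were lowest in replicate 4, at 908 and 352 CPM, 0.59 and 0.56 times the mean of the other 5. miR-99b-5p did not fall with them, at 1299 CPM there, 0.94 times that mean, so this cluster parted too. miR-200b-3p was 1.13 to 1.70 times as abundant as miR-200a-3p. The related cluster of miR-99a-5p (987 ± 125 CPM), let-7c (2737 ± 609) and miR-125b-5p (1784 ± 579) also parted in replicate 4. There miR-125b-5p was 638 CPM, against 2013 ± 157 in the other 5 livers, while let-7c was 3301 CPM, within the range of the others. miR-451a was 4.70 to 6.96 times as abundant as miR-144-3p, so both members were low together in replicates 2 and 3 and high together in replicate 4.

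**Figure D4:**
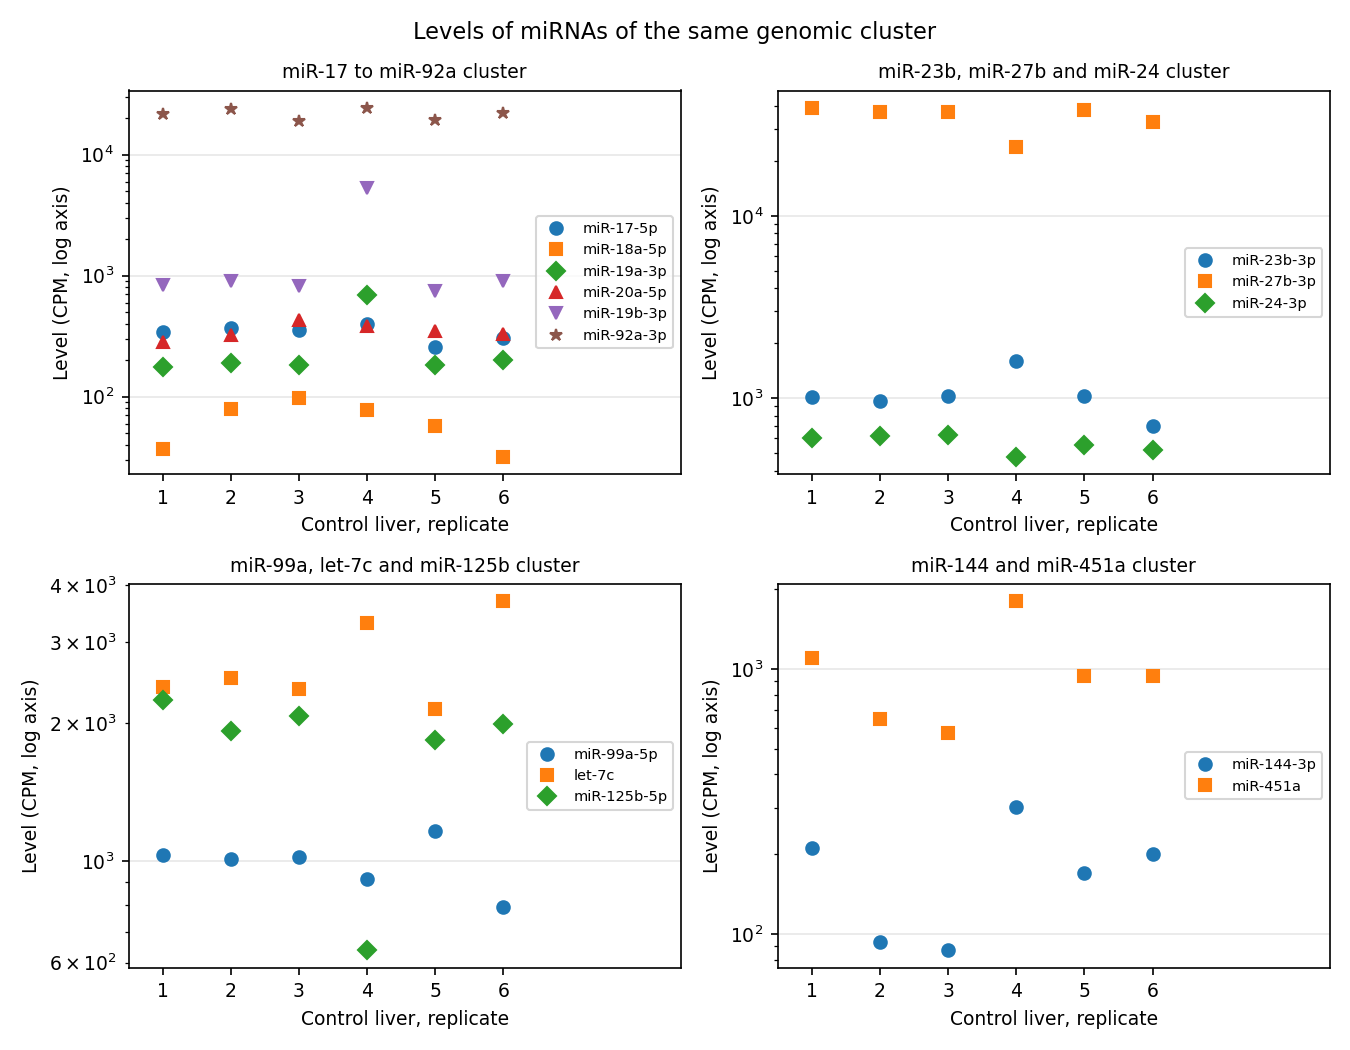
Levels of the members of 4 genomic clusters in each control liver, in CPM after TMM scaling on log axes, with 1 symbol per miRNA. In replicate 4, miR-19b-3p (5303 CPM), miR-19a-3p (688 CPM) and miR-125b-5p (638 CPM) leave the level of the other livers while most of their cluster partners stay nearer to it.

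The imprinted DLK1-DIO3 cluster, expressed from the maternal chromosome and active in fetal tissue, was broadly present. Of 71 names, 67 had reads and 49 had reads in all 6 livers, and 21 averaged at least 100 CPM. Summed, the cluster stood at 36952, 34800, 32045, 51604, 42609 and 37023 CPM in replicates 1 to 6, with a mean of 39172 ± 7012 and 36686 without replicate 4. It held 3.11% to 5.40% of reads. miR-127-3p alone made up 43.1% of it, and miR-127-3p, miR-411-5p, miR-381 and miR-410 (2156 ± 510 CPM) together 77.1%.

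Within that cluster, miR-127-3p was high in replicate 4, at 25336 CPM against 13920 to 17927 in the others. It was 1.67 times the mean of the other 5 there, and miR-376a-3p, miR-376c, miR-432-5p and miR-299-3p were over 2 times that mean. With 1 arm counted per hairpin, most names of the cluster at 10 CPM or more were above that mean. miR-410 (1.525 times), miR-136-3p (1.58) and miR-369-3p (1.44) were among them. miR-411-5p and miR-381 were close to it, at 1.02 and 1.00 times. A few were below it, namely miR-654-3p (0.91), miR-379-5p (0.95) and the less abundant miR-543 (0.58), miR-496 (0.63) and miR-1185-1-3p (0.63). The opposite arms went both ways, with miR-369-5p (0.37) and miR-299-5p (0.49) below and miR-127-5p (2.22) and miR-379-3p (2.09) above. By 1 arm per hairpin, most DLK1-DIO3 names thus stood higher in replicate 4, to unlike degrees, and did not move as 1 block.

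Over the 149 names at 100 CPM or more, the median coefficient of variation (SD over mean) was 21.7%, and 14.3% without replicate 4. It was under 10% for 18 names and over 50% for 7, which became 39 and 3 without replicate 4. The common biological coefficient of variation, edgeR's estimate of spread beyond counting, was 0.268, and 0.171 without replicate 4. Leaving out any other liver gave 0.281 to 0.309.

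The steadiest names were miR-1307-5p (4.3%), miR-30d-5p (7.2%), miR-186-5p (7.3%), miR-99b-5p (7.4%), miR-103a-3p (7.6%), miR-21-5p (7.7%), miR-151a-3p (7.9%) and miR-379-5p (8.1%). For miR-1307-5p, at 441 CPM, counting alone would give 9.0%, so its spread is within counting error, and for miR-379-5p it would give 9.8%. Both miR-103a-3p, used as a reference in many small RNA assays, and miR-21-5p, a miRNA of growth and injury, varied more than the 4.8% and 2.9% that counting gives.

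The least steady were miR-4792 (207%), miR-4485 (138%), miR-19b-3p (115%), miR-10b-5p (92.0%), miR-19a-3p (75.9%), miR-660-5p (58.4%), miR-376a-3p (55.4%) and miR-340-5p (47.7%). miR-4792 stood at 3.71, 7.47, 0, 649, 10.8 and 79.5 CPM, and miR-4485 at 48.2, 112, 35.4, 375, 32.5 and 3.18 CPM, in replicates 1 to 6. Without replicate 4, miR-19b-3p fell to 8.0%, miR-19a-3p to 5.1%, miR-660-5p to 12.7%, miR-376a-3p to 12.2% and miR-340-5p to 17.4%. miR-10b-5p, which lies in the HOXD cluster, did not depend on that liver. It stood at 13675 CPM in replicate 1, against 2012 to 3975 CPM in the other 5, and its coefficient of variation without replicate 4 was 94.9%. miR-4792 (164%) and miR-4485 (87.1%) also stayed above 50% without that liver. Both averaged at least 100 CPM only with replicate 4 included, and the other livers held 0 to 79.5 CPM of miR-4792. The paralogue of miR-10b-5p from the HOXB cluster, miR-10a-5p, was 31472 CPM in replicate 1, within the range of the others.

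Replicate 4 had a median absolute deviation of 0.35 on the log2 scale from the median of the 6 livers, against 0.08 to 0.17 in the others. It was over 2-fold from that median for 27 of 149 names, and the other livers for 0 to 5. It was the highest liver for 51 names and the lowest for 45. Its Spearman correlation with the other livers over these names was 0.906 to 0.921, while pairs of the other 5 gave 0.974 to 0.987, as a description across miRNAs and not across independent replicates.

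Against the mean of the other 5, replicate 4 was over 2-fold lower for 15 names and over 2-fold higher for 13. Names lower there included miR-151a-5p (0.24 times), miR-122-3p (0.28), miR-125b-5p (0.32), miR-194-5p (0.40) and miR-181a-5p (0.45). Names higher there included miR-19b-3p (6.29 times), miR-19a-3p (3.69), miR-660-5p (2.85), miR-376a-3p (2.73) and miR-451a (2.13). The arms of single hairpins also parted in that liver. Of 41 loci with at least 60 reads on each arm, the ratios of the 5p and the 3p arm to the mean of the other livers differed by over 2-fold at 15 loci in replicate 4, and at 1 to 3 loci in each of the other livers. miR-299-5p was 0.49 times and miR-299-3p 2.08 times the mean of the other 5. miR-144 was unlike these, with both arms at about 2 times that mean. Replicate 4 was also the smallest library, with 247289 reads, and the part of depth in its values was not tested.

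**Figure D5:**
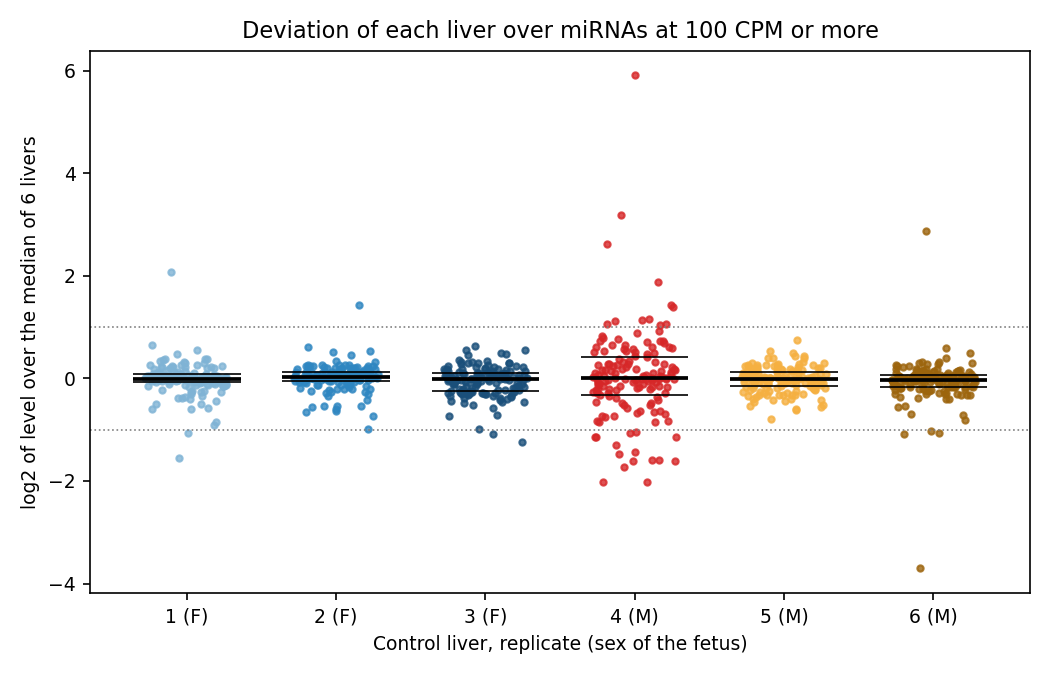
Deviation of each control liver, as log2 of its level over the median of the 6 livers, for the 149 miRNAs at 100 CPM or more, with quartiles as black lines, dotted lines at 2-fold and levels of 0 not drawn. Replicate 4 spreads most, with 27 names beyond 2-fold, and the single high point of replicate 1 is miR-10b-5p.

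Sex was the only contrast the labels allowed within the control livers, with 3 males (replicates 4 to 6) and 3 females (replicates 1 to 3). None of 213 tested miRNAs (0%) passed an adjusted p of 0.05 in edgeR's quasi-likelihood test with Benjamini-Hochberg adjustment, and the lowest adjusted p was 0.6. At an unadjusted p under 0.05 there were 9, and DESeq2 gave 0 calls with 7 at that level. After TMM scaling, the values of the sexes did not overlap for 30 of 213 names (14.1%). With replicate 4 among the males, its deviations enter this comparison. Without it there were again 0 calls, with 19 at an unadjusted p under 0.05.

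The 5 lowest p belonged to miR-144-5p, miR-122-5p, miR-574-5p, miR-378a-5p and miR-410. miR-144-5p averaged 60.9 ± 24.4 CPM in females and 137 ± 31.1 CPM in males (log2 1.17, SE 0.35, edgeR adjusted p = 0.6, n = 3 each). miR-122-5p averaged 196425 ± 16707 CPM in females and 154600 ± 16551 CPM in males (log2 -0.34, SE 0.12, edgeR adjusted p = 0.6). The log2 differences of males over females were -1.06 for miR-574-5p, -0.90 for miR-378a-5p and 0.51 for miR-410. In each of the 5, the sexes did not overlap under TMM, as in all 9 names at an unadjusted p under 0.05. These names were picked by p on the same values, so this is no separate support. For miR-122-5p the lack of overlap depended on scaling. As a share of reads, replicate 6 (18.3%) lay above replicate 1 (17.9%), and total counts gave log2 -0.19 (edgeR adjusted p = 0.455). TMM factors were 0.904 to 0.977 in females and 1.046 to 1.058 in males.

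Among the cell type lists, with a median log2 difference of 0.03 over all 213 names, the 6 hepatocyte names had a median of -0.28, none higher in males against 111 of all 213, and 4 without overlap against 30 of 213 (14.1%). With scaling by total counts, 2 of the 6 were higher in males, the list's median was -0.13 and that of all names was 0.18. The 4 erythroid names had a median of 0.72, all higher in males under each of the 3 scalings, against 111, 110 and 146 of 213 names under TMM, RLE and total counts. The sexes did not overlap for 1 of the 4, against 14.1% of all names. The erythroid difference follows the low values of replicates 2 and 3, while replicate 1, also female, was at the level of the males for miR-486-5p. The 7 mesenchymal names had a median of -0.16, none higher in males, and 2 without overlap. Scaled by total counts, 2 of the 7 were higher in males. Of the 6 leukocyte names, 5 were higher in males under each scaling, with a median of 0.32 under TMM and 1 without overlap. Medians were 0.06 for 2 endothelial names, 0.08 for 3 biliary epithelial names and -0.08 for 1 islet name. None of these names passed the adjusted threshold.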

How the data were processed

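RNA was extracted with a miRNeasy kit and libraries were made with a TruSeq small RNA kit, pooled 12 to a lane and read for 36 cycles on a Genome Analyzer IIx, per the labels' protocols. The authors deposited unscaled counts, in whole reads, for each pair of mature miRNA and precursor. Per the file headers, normalised columns stand beside them, a signal that equals counts scaled to 1000000 reads within 0.005 over 1 copy of the rows, and these were used only for that check. The 2234 rows are repeated once, and each was used once. For names listed under more than 1 precursor (313 further rows), only the row with the most control reads was used. Names are those of human miRBase, and the submitters' processing notes name hg18. The deposited workbook is named for miRDeep2, and its version, the aligner and the mismatch limits were not given in the sources used here. Baboon reads differing from human sequences may therefore be undercounted, which was not tested.

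Levels are CPM after TMM scaling (edgeR 4.0.16, R 4.3.3). The sexes were compared by edgeR's quasi-likelihood test on counts after filterByExpr (213 names, at least 99.59% of reads), with Benjamini-Hochberg adjustment. DESeq2 1.42.0 was an alternative. The tests were tried on simulated data with known changes. Arm shares used loci at 100 CPM or more over both arms, with 1 precursor for each dominant arm name. Alternatives were other scalings, filters, summed precursor rows, thinning and leaving out each liver. Names in the text were taken by rule: the 30 most abundant, leading members of cell type and cluster lists and members at 0, the 5 lowest p between sexes, the 8 highest and 8 lowest coefficients of variation, the most abundant and most even arm loci, and livers standing apart. A further part of that rule, on seed families, was not applied because mature sequences were not used here. Loci and livers outside these were named after their values were seen. The table of predicted miRNAs was not used. Members and lists were chosen with earlier results of these data known.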

Additional observations from a re-analysis of the deposited data

Results flagged for a closer look

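In 28 of the 149 names at 100 CPM or more, 1 control liver lay far from the rest. The measure is the gap between the extreme liver and its nearest neighbour over the whole range, which for 6 livers was above Dixon's 95% critical value. Chance flags about 1 in 20 groups. In 25 of the 28 the liver was replicate 4, above the others in 18 and below them in 7.

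The names with replicate 4 above the others, with this ratio in parentheses, were miR-127-3p (0.649), miR-101-3p (0.679), let-7i-5p (0.671), miR-98 (0.826), miR-19b-3p (0.965), miR-340-5p (0.74), miR-23b-3p (0.642), miR-335-5p (0.672), miR-532-5p (0.649), miR-299-3p (0.7), miR-660-5p (0.849), miR-136-5p (0.805), miR-19a-3p (0.95), miR-376c (0.807), miR-432-5p (0.809), miR-376a-3p (0.859), miR-4792 (0.878) and miR-4485 (0.707). The names with replicate 4 below the others were miR-194-5p (0.649), miR-151a-5p (0.657), miR-151b (0.657), miR-125b-5p (0.744), miR-148b-3p (0.742), miR-28-5p (0.704) and miR-148a-5p (0.668). miR-4792 and miR-4485 averaged at least 100 CPM, the minimum for this check, only with replicate 4 included. miR-151a-5p and miR-151b are nearly the same counts under 2 names. Replicate 4 was also the smallest library, and the part of depth in these values was not tested.

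Replicate 1 lay above the others for miR-30d-5p (0.631) and miR-10b-5p (0.832), although miR-30d-5p stood at only 10956 CPM there against a median of 9585. Replicate 3 lay above the others for miR-29a-3p (0.812), with 290 CPM against 181 to 202 CPM.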

How the results depend on the processing

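No paired analysis was possible because the labels give nothing that links a female fetus to a male fetus. With no filter on low counts, 5 names passed between the sexes in place of 0. miR-19b-3p, miR-4792, miR-5096 and miR-708-5p were higher in males, each with most of its male reads in replicate 4, and miR-10b-5p was higher in females, with most of its female reads in replicate 1. Both normalisations other than TMM, summed rows, DESeq2, a fit of all 11 livers and leaving out any liver gave 0 calls, the last with 3 to 23 names at an unadjusted p under 0.05. The common biological coefficient of variation ranged from 0.1707 to 0.3088 when 1 liver was left out, the lowest without replicate 4. The number of loci with the 5p arm dominant moved from 62 to 83 at a minimum of 10 CPM and to 31 at 1000 CPM, and the number with the 3p arm dominant from 45 to 71 and to 18, by construction. Leaving out 1 liver could only keep or raise counts that require all livers, and gave 62 and 45 loci and 298 to 310 names with reads in all livers, against 296. Of 132 recomputed levels of 44 named miRNAs, 22 moved by more than the SD over livers, all when precursor rows were summed, which also changed places among the leading 10. Ranks under summed rows and without each liver, and cell type sums without replicates 4 and 1, were added after seeing the data. Depth limits names under about 10 CPM, where a level rests on 3 reads or fewer.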
